A study of Mus musculus with 3 samples.

Results

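The 10 genes described here encode nuclear receptors that pair with the retinoid X receptor (RXR) or are close to its known partners: Ppara, Ppard, Pparg, Vdr, Thra, Thrb, Nr4a1, Nr4a2, Nr4a3 and Nr1h4. They were chosen by name from 21900 protein-coding genes and not by a rule on any measured value. Earlier results of these data were known when they were chosen. Every RXRA peak in each gene or within 50 kb of it was collected. RXRA binding was mapped by CUT&RUN, which sequences DNA cut out of chromatin by a nuclease tethered through an RXRA antibody. The single HSC library came from 10000 haematopoietic stem cells, sorted as Lin-cKit+Sca1+CD48-CD150+, and the 2 MPP libraries from 50000 multipotent progenitors each, sorted as Lin-cKit+Sca1+CD150-. All cells came from the bone marrow of C57BL/6 mice of about 10 months, pooled from 3 or 4 animals, with the genotype given as VavCre+; WT and the mice named as Rxrabfl/fl (WT). All were exposed for 1 h to bexarotene, an RXR agonist, given in the labels as 1 mM, a unit that could not be checked here, and untreated cells are not analysed here. The 2 MPP libraries, replicates 1 and 2, are called MPP1 and MPP2, and the labels do not say whether they came from separate pools of mice. Peak names in the HSC and MPP1 files share a leading tag that those of MPP2 lack, its meaning is not given, and its part in any difference was not tested.

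RXR proteins bind DNA mostly as heterodimers, in which RXR and its partner each contact a short hexamer related to AGGTCA and the spacing of the hexamers helps to set which partner binds. The peroxisome proliferator-activated receptors (PPARs) respond to fatty acids, VDR to the active form of vitamin D, THRA and THRB to thyroid hormone, and FXR, the product of Nr1h4, to bile acids. NR4A1, NR4A2 and NR4A3 are encoded by immediate early genes, have no settled natural ligand, and can bind DNA alone. NR4A1 and NR4A2 can also pair with RXR, and NR4A1 and NR4A3 are known to restrain the expansion of blood stem cells in mice.

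The HSC list held 4047 peaks, against 29848 in MPP1 and 19570 in MPP2. Depth was known only through the peaks, whose fold and p were solved for a whole number of fragments at the summit (the pileup) and a background. The genome-wide background was 0.604 fragments for HSC, 2.87 for MPP1 and 1.08 for MPP2, and the lowest pileup called a peak was 8.28, 3.48 and 5.55 times that background. A weaker site could thus be called in MPP and not in HSC. The authors' deposited fold enrichment (summit pileup over local background) describes a peak within its own list. With 1 HSC library a difference between HSC and MPP has no replicate check and gets no p-value. Peaks of RXRA do not measure expression, so the sorted identity could not be checked against marker levels. For reference, 0 of 8 stem and progenitor genes had a peak within 1 kb of a gene end in HSC, against 5 in MPP1 and 3 in MPP2, and 0 of 5 mature lineage genes had one in any library, where 8.21%, 41.2% and 36.0% of all protein-coding genes did in HSC, MPP1 and MPP2.

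RXRA peaks lay around all 10 receptor genes in both MPP libraries and around 5 of them in HSC. HSC had 11 such peaks, at Ppard, Vdr, Nr4a1, Pparg and Thra, against 63 in MPP1 and 41 in MPP2. Among all protein-coding genes 34.0% had at least 1 peak in this range in HSC, against 78.8% in MPP1, 72.7% in MPP2, 70.4% in both and 32.6% in all 3 libraries. Inside the gene itself, 4 of the 10 had a peak in HSC (Ppard, Pparg, Vdr and Nr4a1), where 10.8% of protein-coding genes did, against 9 in MPP1 (52.1%) and 6 in MPP2 (44.6%). These counts were not adjusted for gene length, whose median was 61.3 kb for the 10 genes and 17.1 kb for all protein-coding genes. The count of HSC peaks in range leaned on Ppard, which held 5 of the 11 peaks. With q of 1e-05 or less the peaks in range numbered 5 for HSC, 3 of them at Ppard, 35 for MPP1 and 25 for MPP2. Ppara, Thrb, Nr4a2, Nr4a3 and Nr1h4 had no HSC peak in range. The fold ran from 4.28 to 7.51 (median 6.06) over the 11 HSC peaks, from 2.91 to 7.75 (median 4.40) in MPP1 and from 3.33 to 11.1 (median 5.79) in MPP2, and no peak was in the top 1% of its list. Joined by overlap across libraries, the peaks formed 70 sites, of which 8 had a peak in all 3 libraries, 27 in both MPP libraries without HSC, 27 in MPP1 alone and 5 in MPP2 alone. The 3 others held an HSC peak alone, with MPP1 or with MPP2. These classes of sites were not counted over all peaks. By peak, 9 of the 63 in MPP1 (14.3%) and 8 of the 41 in MPP2 (19.5%) overlapped an HSC peak. Over all peaks of these lists the shares were 9.75% and 15.9%, so most MPP peaks anywhere had no HSC peak. The peak nearest to the distance limit on the inside was 45.9 kb from Nr4a1 in MPP1 (fold 4.73), and the nearest outside was 51.4 kb from Nr4a1 in MPP2 (fold 4.16).

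**Figure D1:**
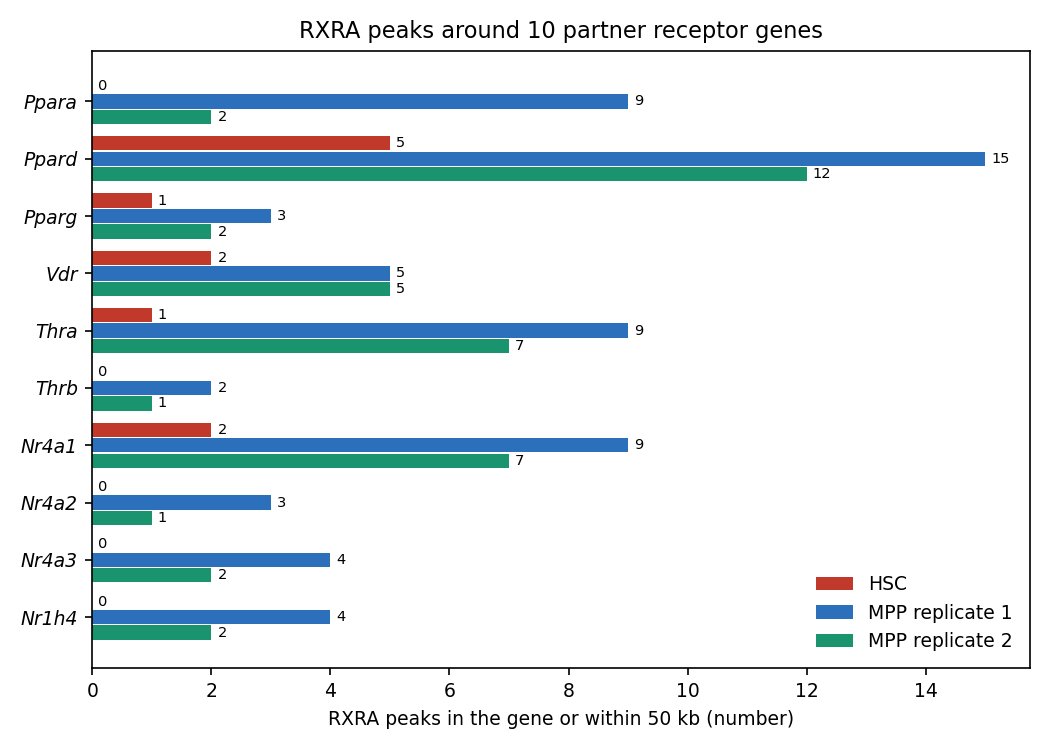
Number of RXRA peaks in each receptor gene or within 50 kb of it (horizontal axis), with 1 bar per library and no error bars, since each bar is a count in 1 library. Ppard has the most peaks in every library (5 in HSC, 15 and 12 in MPP), and 5 genes have none in HSC.

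Start sites were annotated for 9 of the 10 genes, with 12 starts in all, and Thra had no entry. The count of genes by start was chosen after the data were seen. A peak lay within 1 kb of an annotated start at 1 gene in HSC, Nr4a1, against 6 genes in MPP1 and 4 in MPP2. Among the 17492 protein-coding genes with an annotated start, 8.57% were marked in this way in HSC, against 42.1% and 38.0% in MPP, 30.1% in both MPP libraries (here 3 genes) and 6.01% in all 3 (here 0). The MPP1 genes were Ppara, Ppard, Pparg, Vdr, Nr4a2 and Nr4a3, and the MPP2 genes were Ppard, Vdr, Nr4a1 and Nr4a2. With either end of the gene in place of the start, HSC marked 0 of the 10 genes and 8.21% of protein-coding genes, against 8 (41.2%) for MPP1, 5 (36.0%) for MPP2, 4 (28.9%) for both MPP libraries and 0 (5.83%) for all 3. Nr4a1 differs between the definitions because its annotated gene begins 12.9 kb before the annotated start used here.

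The 4 promoters that peaks of at least 2 libraries overlapped, in part or whole, are printed here from 250 bases before the start to 50 after it, as given by RefSeq (GRCm38.p6, the assembly behind mm10), each read 5′ to 3′ on the strand of the gene. Capitals mark the hexamer AGGTCA, its variant GGGTCA, the related AGTTCA or the related GGTTCA on either strand, forms of the motif that RXR and its partners contact. On the 300 bases themselves, HSC had a peak at 1 gene (7.71% of protein-coding genes), MPP1 at 6 (35.8%), MPP2 at 4 (34.2%), both MPP libraries at 3 (25.5%) and all 3 libraries at 0 (4.99%). Nr4a1 lies at chr15:101266596-101266895 on the plus strand, Vdr at chr15:97908247-97908546 on the minus strand, Ppard at chr17:28232504-28232803 on the plus strand and Nr4a2 at chr2:57123954-57124253 on the minus strand.
Nr4a1: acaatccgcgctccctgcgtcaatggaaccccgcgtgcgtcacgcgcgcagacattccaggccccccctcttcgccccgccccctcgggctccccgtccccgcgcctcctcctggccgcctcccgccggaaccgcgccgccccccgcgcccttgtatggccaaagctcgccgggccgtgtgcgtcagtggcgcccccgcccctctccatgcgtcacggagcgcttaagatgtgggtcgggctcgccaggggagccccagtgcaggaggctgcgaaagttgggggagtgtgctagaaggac
Vdr: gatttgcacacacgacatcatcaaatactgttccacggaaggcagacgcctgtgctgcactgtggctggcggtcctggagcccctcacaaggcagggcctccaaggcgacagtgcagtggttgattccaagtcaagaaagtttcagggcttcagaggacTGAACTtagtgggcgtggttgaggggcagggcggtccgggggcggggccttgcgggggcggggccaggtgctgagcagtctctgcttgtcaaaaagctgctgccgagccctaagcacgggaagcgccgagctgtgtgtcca
Ppard: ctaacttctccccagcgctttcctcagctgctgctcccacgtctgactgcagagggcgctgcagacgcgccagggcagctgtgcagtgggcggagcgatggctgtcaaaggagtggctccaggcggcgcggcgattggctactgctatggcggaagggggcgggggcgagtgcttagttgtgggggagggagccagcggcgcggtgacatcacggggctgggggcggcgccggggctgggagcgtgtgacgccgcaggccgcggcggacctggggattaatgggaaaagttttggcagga
Nr4a2: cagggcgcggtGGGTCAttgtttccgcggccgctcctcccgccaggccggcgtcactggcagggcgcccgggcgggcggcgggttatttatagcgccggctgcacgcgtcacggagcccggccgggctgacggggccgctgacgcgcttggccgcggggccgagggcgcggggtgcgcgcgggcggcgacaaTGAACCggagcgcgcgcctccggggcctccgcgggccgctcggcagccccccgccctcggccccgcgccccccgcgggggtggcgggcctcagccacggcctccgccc
The Nr4a1 and Ppard promoters held none of the hexamers, Vdr held 1 and Nr4a2 held 2. The Vdr hexamer begins at position -91 relative to the start, and those of Nr4a2 at -239 and -58. The Vdr hexamer and the Nr4a2 hexamer at -239 lay within the peaks of both MPP libraries, and that of Nr4a2 at -58 lay outside every peak. All 4 promoters were richer in G and C, at 72.3%, 61.3%, 68.3% and 81.7%, than the median of 52.7% over 32851 RefSeq promoters of the same length.

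Across the 12 promoters of these genes, 7 promoters of 5 genes (Pparg, Vdr, Thrb, Nr4a2 and Nr1h4) held a hexamer, against 43.7% of all promoters. The Pparg promoter under an MPP1 peak had AGGTCA at -28. No promoter of these genes held a direct repeat of the hexamers with 1 to 5 bases between them, which 0.0396% to 0.268% of all promoters did for each spacing. None held an inverted repeat with 0 or 1 base between (0.0761% and 0.0365% of all promoters) or AAAGGTCA, the motif that NR4A proteins bind alone and that contains AGGTCA (1.51%). Both strands were searched and only exact matches counted, so the absence says only that these letters are not in these windows.

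Ppard, which encodes the widely expressed PPAR delta, lies on chromosome 17 from 28232754 to 28301469 and had more peaks in range than any of the other genes in every library, 5 in HSC, 15 in MPP1 and 12 in MPP2. All 5 HSC peaks overlapped a peak of both MPP libraries. At least as many HSC peaks were in range of 37 of 21900 protein-coding genes (0.169%), Ppard included. The like share was 0.493% for the MPP1 count and 0.338% for the MPP2 count. These shares are those of the gene with the highest counts of the 10. They were not adjusted for gene length, which was 68.7 kb for Ppard against a median of 17.1 kb for all protein-coding genes. Neighbouring genes can hold the same peaks in range, so the genes counted are not independent. Of the 5 shared sites, 3 lay upstream of Ppard inside Def6, a neighbouring gene for a signalling protein of lymphocytes, and 2 lay inside Ppard.

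The upstream site nearest to Ppard had its HSC summit 8.53 kb before the start, with 7.03-fold enrichment over 14 fragments at the summit (Poisson 95% limits, exact, of 7.65 to 23.5). The same site had 4.27-fold enrichment in MPP1 from 19 summit fragments (11.4 to 29.7). In MPP2 its fold was 11.1 from a pileup of 37 (26.1 to 51.0), which placed it among the top 1.72% of that list and made it the peak of highest fold around any of the 10 genes. The summits were 40 bp apart between HSC and MPP2, and 494 bp apart between HSC and MPP1, whose peak was wider.

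The other upstream sites, 14.8 and 20.5 kb before the start in HSC, had folds of 6.28 and 5.72 in HSC. They had folds of 5.76 and 4.65 in MPP1 and of 7.46 and 7.49 in MPP2. Inside the gene, the site 24.2 kb after the start had the highest HSC fold of all 11 peaks, 7.51 from a pileup of 14 (7.65 to 23.5), against folds of 4.44 and 5.91 in MPP. The site 55.2 kb after the start had 6.06-fold enrichment in HSC from 11 summit fragments (5.49 to 19.7), against 3.43 and 3.73 in MPP. That last MPP2 peak was near the bottom of its list by fold, below 97.4% of the peaks. The deposited folds are set beside each other here and do not measure a difference in binding, since each is relative to its own library.

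**Figure D2:**
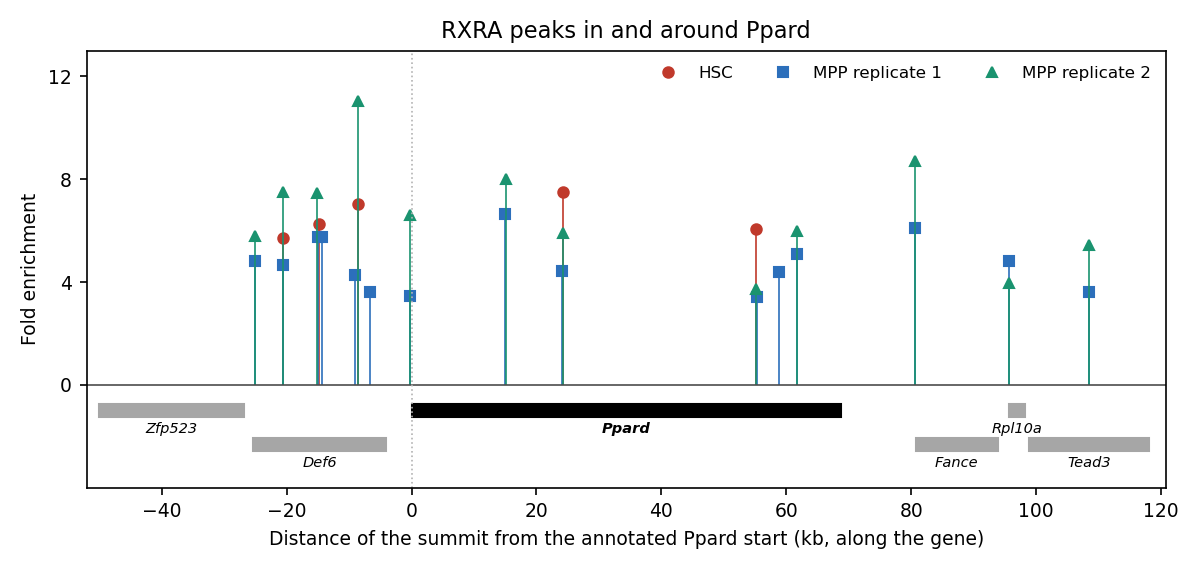
Fold enrichment of each RXRA peak (vertical axis, the authors' deposited value) against the distance of its summit from the annotated Ppard start in kb along the gene, with 1 symbol per peak and library and protein-coding genes drawn to scale below. The 5 HSC peaks fall at 3 sites inside Def6 and 2 inside Ppard, and each has an MPP symbol of both replicates at or near its position.

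Ppard also had MPP peaks without an HSC peak. At its start, MPP1 had 3.46-fold enrichment from 14 summit fragments (7.65 to 23.5) and MPP2 6.59-fold enrichment from 19 summit fragments (11.4 to 29.7). A site 15.0 kb inside the gene had folds of 6.63 and 8.02 and pileups of 35 and 24, a higher fold than at all 5 shared sites in MPP1 and at 4 of the 5 in MPP2. A further site 61.8 kb after the start had folds of 5.10 and 6.00, and a site at an end of Def6, 25.1 kb before the start, folds of 4.84 and 5.79. Downstream, 3 sites at the ends of Fance, a Fanconi anaemia gene, and Rpl10a, a ribosomal protein gene, and inside Tead3 had peaks in both MPP libraries with folds of 3.60 to 8.73. These lie 11.9 to 39.7 kb beyond the end of Ppard and at other genes, so their count belongs to the range and not to Ppard itself.

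Ppara encodes the PPAR of fatty acid oxidation in liver and lies on chromosome 15 from 85734910 to 85806851. It had 0 peaks in range in HSC, 9 in MPP1 and 2 in MPP2. Its start had 2 peaks in MPP1 alone, with folds of 3.61 and 3.54 and a pileup of 14 fragments each. The 2 sites with peaks in both MPP libraries lay at other genes, at an end of Cdpf1 (folds 6.19 and 8.82) and of Ttc38 (3.92 and 5.29). Inside the gene, peaks were found in MPP1 only, so no site of Ppara itself recurred between the MPP libraries.

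Pparg, the regulator of fat cell formation, lies on chromosome 6 from 115360879 to 115490404 and had 1 peak in HSC, 3 in MPP1 and 2 in MPP2. The HSC peak lay inside the gene, from 115480174 to 115480507, with 7.11-fold enrichment and 11 summit fragments (5.49 to 19.7). It overlapped an MPP1 peak with 4.39-fold enrichment and 16 summit fragments (9.15 to 26.0). The MPP2 peak beside it, with 4.67-fold enrichment and 9 summit fragments (4.12 to 17.1), overlapped that of MPP1 and missed the HSC peak by 94 bp. Of its 3 annotated starts the most upstream had a peak in MPP1 alone, with a fold of 3.88. The third site, 28.9 kb beyond the gene at an end of the noncoding gene Gm36301, had folds of 5.45 and 5.40 in the MPP libraries.

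Vdr lies on chromosome 15 from 97854427 to 97908296, with its start at the upper coordinate. Its start carried the peak of highest fold around these genes in MPP1, at 7.75 from a pileup of 36 (25.2 to 49.8), among the top 3.98% of that list. In MPP2 the start peak had 8.08-fold enrichment and 22 summit fragments (13.8 to 33.3). The summits lay 26 bp after and 13 bp before the annotated start. HSC had no peak there.

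The 2 HSC peaks of Vdr lay elsewhere. The first was 4.54 kb beyond the downstream end of the gene, with 5.44-fold enrichment and 8 summit fragments (3.45 to 15.8), and overlapped a peak of MPP1 (fold 4.50, pileup 20) and none of MPP2. The second, inside the gene, had 4.28-fold enrichment and 6 summit fragments (2.20 to 13.1) and was the only HSC peak around the 10 genes with no MPP counterpart. Its pileup was 1 fragment above the lowest called anywhere in the HSC list, 5. Upstream of Vdr, sites 41.6 and 44.3 kb before the start had peaks in both MPP libraries, as did a site inside Hdac7, a histone deacetylase gene, on the other side (folds 5.48 and 4.33). MPP2 alone had a peak 37.1 kb after the start, inside Vdr (fold 4.14).

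Thra, the thyroid hormone receptor of heart and brain, lies on chromosome 11 from 98740776 to 98769006 in a gene-dense region and had 1 peak in range in HSC, 9 in MPP1 and 7 in MPP2. The HSC peak was not in Thra. It lay 30.1 kb away inside Med24, a Mediator subunit gene, within 1 kb of the small nucleolar RNA gene LOC115487912, with 4.32-fold enrichment and 6 summit fragments (2.20 to 13.1). Both MPP libraries had it, with folds of 3.61 and 7.11. Inside Thra 1 site had peaks in both MPP libraries, with folds of 5.53 and 3.84 and pileups of 26 and 8, and the lower end of the gene had a peak in MPP1 alone (fold 4.67). The remaining sites shared by the MPP libraries lay at Nr1d1, which encodes the clock repressor REV-ERB alpha and overlaps the other end of Thra, at the noncoding gene Gm31862, at Casc3, and in the gap 20.0 kb beyond Thra.

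Thrb, the thyroid hormone receptor of liver, pituitary and inner ear, is the longest of the genes, from 17659225 to 18040097 on chromosome 14, and had 0 peaks in HSC, 2 in MPP1 and 1 in MPP2. The site inside the gene, 20.4 kb after the more downstream of its 2 annotated starts, had folds of 3.88 and 6.64 in the MPP libraries with pileups of 14 and 13. Neither start had a peak, and the other MPP1 peak lay 26.2 kb before the gene (fold 4.39). Over its 381 kb and both flanks this came to 0.416 peaks per 100 kb in MPP1 and 0.208 in MPP2, the lowest density of the 10 genes in both.

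Nr4a1, also called Nur77, lies on chromosome 15 from 101253902 to 101274795 and had 2 peaks in HSC, 9 in MPP1 and 7 in MPP2. At its annotated start HSC had a peak from 101266546 to 101266870, with 6.68-fold enrichment and 12 summit fragments (6.20 to 21.0), among the top 18.6% of the HSC list. MPP2 had a peak there with 3.90-fold enrichment and 12 summit fragments (6.20 to 21.0), low in its list, below 94.6% of the peaks. MPP1 had none. The HSC and MPP2 summits were 177 and 78 bp before the start. The second HSC peak lay 20.4 kb before the start and 7.48 kb outside the gene, with 5.50-fold enrichment and 8 summit fragments (3.45 to 15.8), against folds of 3.28 and 6.05 in MPP.

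The strongest site inside Nr4a1 in MPP lay 4.18 kb before the start. It had 5.17-fold enrichment and 29 summit fragments (19.4 to 41.6) in MPP1, and 6.92-fold enrichment and 25 summit fragments (16.2 to 36.9) in MPP2. HSC had no peak at it. Of the sites outside the gene without an HSC peak, only that at an end of Grasp recurred in MPP, with folds of 5.42 and 4.97. The others had a peak in a single MPP library, among them sites of MPP2 at ends of Atg101 (fold 3.76) and Smim41 (fold 4.65). The lower end of the annotated gene had weak peaks in both MPP libraries, with folds of 2.91 and 3.33.

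Nr4a2, known for its role in dopamine neurons, lies on chromosome 2 from 57106830 to 57124003, with its start at the upper coordinate, and had 0 peaks in HSC. Its start had a peak in both MPP libraries, with folds of 5.17 and 8.22, pileups of 19 (11.4 to 29.7) and 18 (10.7 to 28.4), and summits 182 and 198 bp before the start. The peak also lies at an end of the predicted coding gene LOC105244150. A peak inside the gene, with 6.50-fold enrichment and 29 summit fragments (19.4 to 41.6), and a further peak beyond it (fold 5.17) were found in MPP1 alone.

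Nr4a3, also called NOR1, lies on chromosome 4 from 48045078 to 48086447 and had 0 peaks in HSC, 4 in MPP1 and 2 in MPP2. A site 1.91 kb before its start in MPP1 and 1.85 kb in MPP2 had folds of 4.40 and 5.45. The start itself had a peak in MPP1 alone, with 4.24-fold enrichment and 22 summit fragments (13.8 to 33.3). The other recurring site was at an end of Stx17, a gene of autophagosome fusion, 38.4 kb beyond Nr4a3, with folds of 5.43 and 7.69.

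**Figure D3:**
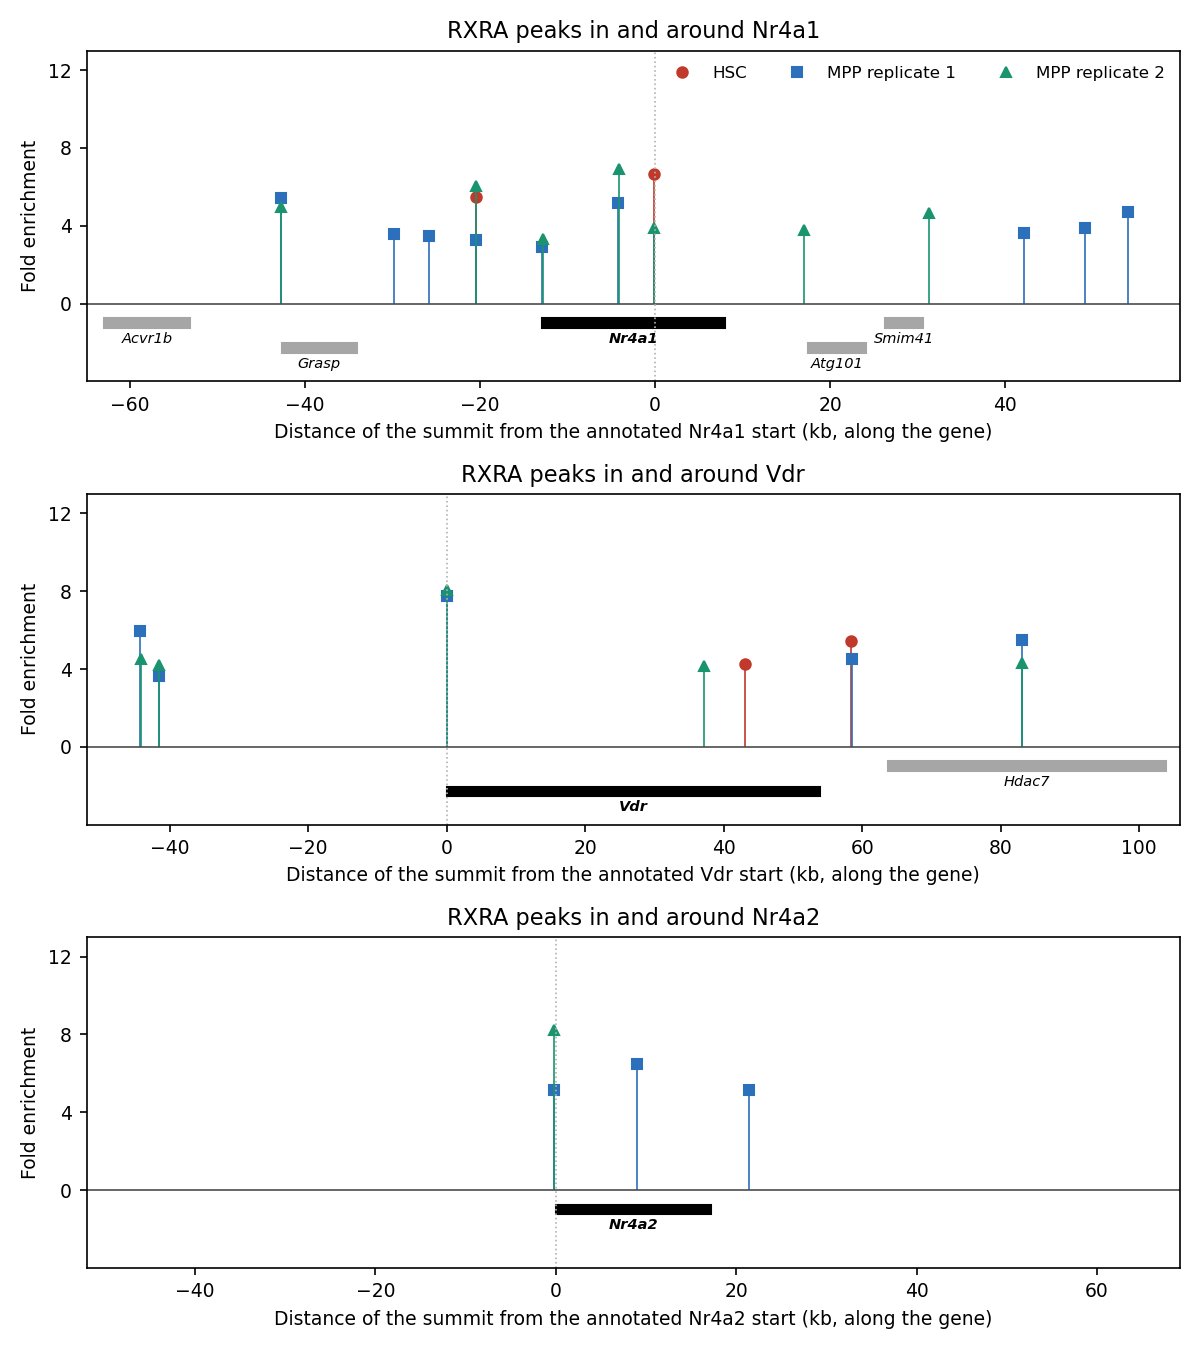
Fold enrichment of each RXRA peak (vertical axis) against the distance of its summit from the annotated start in kb along the gene, for Nr4a1, Vdr and Nr4a2, with 1 symbol per peak and library and protein-coding genes drawn to scale below. The start of Nr4a1 has an HSC symbol (fold 6.68) above that of MPP2, whereas the starts of Vdr and Nr4a2 have symbols of both MPP libraries and none of HSC.

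Nr1h4, which encodes the bile acid receptor FXR and is mainly a gene of liver and intestine, lies on chromosome 10 from 89454234 to 89533645. No library had a peak inside the gene or within 1 kb of its annotated start. The peaks in range, 0 in HSC, 4 in MPP1 and 2 in MPP2, lay inside Gas2l3 or at its end nearer to Nr1h4, apart from an MPP2 peak whose summit was 1.24 kb beyond the downstream end of Nr1h4 (fold 4.07, pileup 8) and whose edge came within 1 kb of it. Its recurring site, at the end of Gas2l3, had folds of 4.09 and 6.38.

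Of the 11 HSC peaks, 7 overlapped a peak of both MPP libraries (63.6%, exact binomial 95% interval 30.8 to 89.1), and 10 a peak of either (90.9%, 58.7 to 99.8). Over all 4047 HSC peaks these shares were 61.6% and 85.2%, inside both intervals. The 10 were the 5 peaks at Ppard, both at Nr4a1, the peaks at Pparg and Thra, and the Vdr peak outside the gene. For the MPP libraries, 35 of the 63 replicate 1 peaks had a replicate 2 counterpart (55.6%, 42.5 to 68.1, against 44.9% of all replicate 1 peaks), and 35 of the 41 replicate 2 peaks had a replicate 1 counterpart (85.4%, 70.8 to 94.4, against 68.1% of all replicate 2 peaks). With only the 4047 strongest peaks by fold kept in each MPP list, 0 of the 11 HSC peaks overlapped both MPP libraries and 8 overlapped neither, so the shares depend on the length of the MPP lists. The shares over all HSC peaks were not computed with these shorter lists, so these 2 counts cannot be set against them. Intervals cover counting error only and treat peaks as independent, which neighbouring peaks of 1 locus are not.

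MPP sites with and without an HSC peak had overlapping ranges of signal. Summit pileup over the genome-wide background in MPP2 ranged from 8.32 to 34.2 (median 16.6) at the 9 sites with an HSC peak, against 6.47 to 23.1 (median 13.9) at the 32 without. In MPP1 it ranged from 4.18 to 8.71 (median 6.62) at the 9 sites with an HSC peak, against 4.18 to 12.5 (median 6.62) at the 54 without. The lowest ratio called anywhere in HSC was 8.28. It was reached at 28 of the 32 MPP2 sites and 17 of the 54 MPP1 sites without an HSC peak, and at 9 of the 9 MPP2 and 2 of the 9 MPP1 sites with one. The start of Vdr is among them, at 12.5 in MPP1 and 20.3 in MPP2. At HSC depth that lowest ratio stands for 5 fragments, so a missing HSC peak does not show an absence of RXRA.

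**Figure D4:**
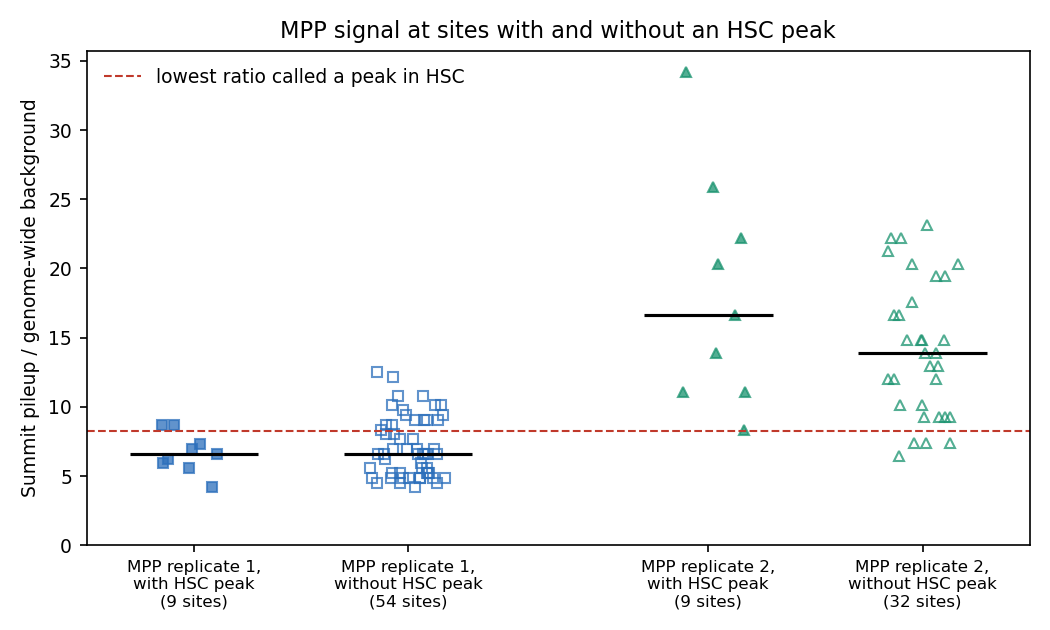
Summit pileup over the genome-wide background (vertical axis, from 0) at each site around the 10 genes, for each MPP library, split by whether the site also has an HSC peak. Each symbol is 1 site, black bars are medians, and the dashed line is the lowest ratio called in HSC (8.28). Symbols with and without an HSC peak cover overlapping ranges in both libraries.

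By position, 25 of the 70 sites lay inside the receptor gene or within 1 kb of its ends or start, 14 at an end of another protein-coding gene, 13 inside another protein-coding gene and 18 away from any protein-coding gene. The 8 sites with peaks in all 3 libraries were 3 in or at the receptor gene (2 at Ppard and 1 at Pparg), 4 inside another gene (3 in Def6 and 1 in Med24) and 1 between genes, near Nr4a1. At Pparg the HSC and MPP2 peaks were joined through that of MPP1. No site at an end of another protein-coding gene had an HSC peak, while 10 of those 14 sites had peaks in both MPP libraries. HSC was also the lowest at gene ends in general. The gene-end measure marked 8.21% of all 21900 genes in HSC, against 41.2% in MPP1, 36.0% in MPP2 and 28.9% in both MPP libraries. These shares count genes and not sites, so the 14 sites have no exact reference and their counts show nothing particular to them. Of the peaks in range, 0 of 11 in HSC lay at an end of another protein-coding gene. The exact binomial interval, at the level used above, was 0 to 28.5%. The MPP shares were 12 of 63 in MPP1 (19.0%, interval 10.2 to 30.9) and 12 of 41 in MPP2 (29.3%, 16.1 to 45.5). These intervals treat peaks as independent, though 5 of the 11 HSC peaks were at Ppard. A difference between HSC and MPP was not tested, and the share over all peaks was not computed. The Nr4a2 start site, also at an end of LOC105244150, was counted with the receptor gene. Exons and introns were not distinguished here.

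The number of peaks in range depends on the length of the gene, and these genes are long, with a median of 61.3 kb against 17.1 kb for all protein-coding genes. In HSC the 10 genes had a median of 0.218 peaks per 100 kb of gene and flanks, against 0 for all protein-coding genes. In MPP1 the medians were 3.04 and 1.98, and in MPP2 they were 1.29 and 1.40, so by the median the 10 genes were above all genes in MPP1 and below them in MPP2. Pooled over their length, the 10 genes had 0.581 peaks per 100 kb in HSC, 3.33 in MPP1 and 2.17 in MPP2, against 0.323, 2.35 and 1.61 pooled over all protein-coding genes. Without Ppard, a choice made after seeing the values, the 9 others had 0.348, 2.79 and 1.68. Ppard itself had 2.96 per 100 kb in HSC, against 8.89 and 7.11 in the MPP libraries.

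**Figure D5:**
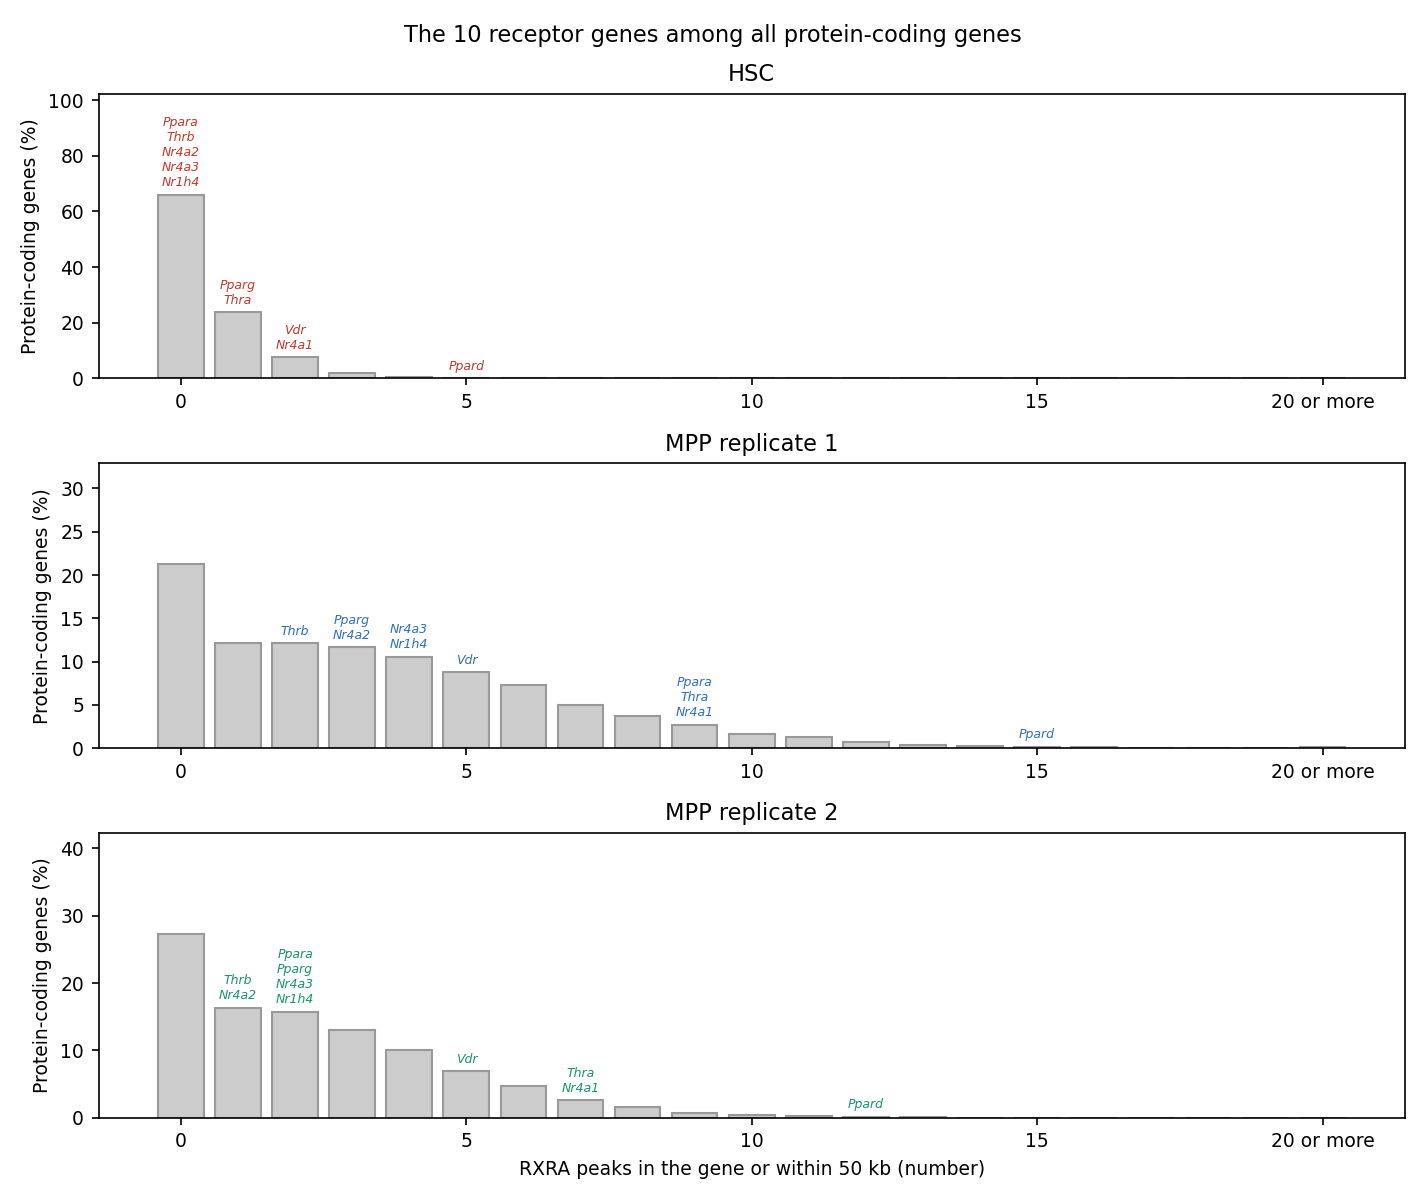
Share of all 21900 protein-coding genes (vertical axis, grey bars) by the number of RXRA peaks in the gene or within 50 kb (horizontal axis), for each library, with the 10 receptor genes named above the bar of their own count. Ppard lies far to the right in all 3 panels (5 peaks in HSC), and the other 9 genes have 0 to 2 peaks in HSC.

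Among the 39 other nuclear receptor genes, those with peak counts closest to a member across the 3 libraries were found by the distance on log2(count + 1). Nr2c1 had the counts of Pparg (1 in HSC, 3 and 2 in MPP), and Nr3c1, Nr3c2 and Nr2e3 those of Thrb (0, 2 and 1). The gene closest to Ppard was Esrra, at 3 in HSC and 8 and 5 in MPP, against 5, 15 and 12 for Ppard, the greatest distance of the 10. Of the 10 RXR genes and other partner receptors (RXR, RAR, LXR, PXR and CAR), 6 had an HSC peak in range, and of 29 further nuclear receptors 6 did, against the 5 of 10 described here and 34.0% of all protein-coding genes. A peak within 1 kb of a gene end was found at 1 of those 10 in HSC, 4 in MPP1 and 2 in MPP2, with Nr1h2 in all 3, where the shares over all genes were 8.21%, 41.2% and 36.0%.

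Genes downstream of these receptors were counted by the same measure, a peak within 1 kb of either end. Of 10 PPAR target genes, 2 were marked in HSC, 5 in MPP1 and 6 in MPP2, with Acadm, an enzyme of fatty acid oxidation, and Ucp2, a mitochondrial carrier, in all 3 and Cpt1a, Angptl4 and Plin2 in both MPP libraries. Of 8 VDR targets, 0, 2 and 1 were marked, with Spp1, which encodes osteopontin, in both MPP libraries. Of 8 thyroid hormone receptor targets the counts were 1, 2 and 1, with none in both MPP libraries. Of 5 NR4A targets they were 0, 3 and 1, with Pomc in both MPP libraries, and of 8 FXR targets 0, 1 and 0. Of 11 genes that supply or carry ligands they were 1, 4 and 2, with Slc16a10, a transporter of thyroid hormone and aromatic amino acids, in all 3 and Fabp5, a fatty acid carrier, in both MPP libraries. Set against 8.21%, 41.2% and 36.0% of all protein-coding genes, these short lists are descriptions and no test was made.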

How the data were processed

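RXRA CUT&RUN was analysed in 1 HSC and 2 MPP libraries. The submitters' processing notes name mm10, MACS2 2.1.4 (which calls peaks), Bowtie2 2.3.4.1 (which aligns reads), and cutadapt 1.9.1 and Trim Galore 0.4.2 (which trim them). Settings, and whether a control library entered, are not given in these sources. Each library has its own deposited peak list, so peaks were not called on pooled replicates. The authors' deposited fold enrichment is a ratio, that of summit pileup over the local background. The −log10 p and the −log10 q of a peak were used as deposited, and the deposited score was not used.

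Pileups were solved from fold and p under a Poisson model with 1 added to pileup and background. A whole pileup matched the deposited −log10 p within 0.001 for 99.98%, 100% and 99.99% of peaks. Overlap means at least 1 bp and matched bedtools 2.31.1. Calculations used Python 3.11.15 and scipy 1.17.1 and were tested on simulated data. Gene positions, starts and promoters came from RefSeq tables of the same assembly, without exons. All 111 listed genes were found. The genes named were all 10 members with all of their peaks, neighbours whose ends a peak overlapped, list genes marked in all 3 libraries or, where fewer than 3, in both MPP libraries, and nuclear receptors of closest counts, of which some are not reported here. The members and lists were chosen with earlier results of these data known. No test between cell types was made.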

Additional observations from a re-analysis of the deposited data

How the results depend on the processing

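Of 60 counts recomputed under 11 alternative settings, 26 stayed within 1.5 times the reported count. With q of 1e-05 or less, 5 HSC, 35 MPP1 and 25 MPP2 peaks lay in range, at 44 sites, and a gene-end peak was found at 4 genes for MPP1, 3 for MPP2 and 2 for both. Of those 5 HSC peaks, 3 had a counterpart in both MPP libraries and 2 in neither, and 18 MPP peaks of each replicate had a counterpart in the other. Ppard kept 3 HSC peaks at that threshold, and Pparg and Nr4a1 1 each. With only the 4047 strongest peaks by fold kept in each MPP list, 11 HSC, 4 MPP1 and 11 MPP2 peaks lay in range, at 20 sites. Gene-end peaks were then found at 1 and 2 genes and at 1 in both, 0 HSC peaks had a counterpart in both MPP libraries, 8 had none, and 3 MPP peaks of each replicate had a counterpart in the other. Both settings shorten the MPP lists, and the q threshold also cut the HSC list, to 1180 peaks. The part of list length in the smaller counts and overlaps was not tested. Shares over all protein-coding genes or all HSC peaks were not computed under either setting.

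Leaving out an MPP replicate gave 44 to 65 sites, 5 to 8 genes with a gene-end peak in the remaining MPP library and 2 to 3 HSC peaks without an MPP counterpart. The lower site count was without MPP1 and the higher gene count without MPP2. Within 10 kb of the gene there were 30 and 22 MPP peaks in 36 sites, and within 100 kb 62 MPP2 peaks and 109 sites, as the range itself changes. With a gene-end window of 5 kb, 1 gene was marked in HSC (Vdr), 8 in MPP2 and 7 in both MPP libraries. The share of all protein-coding genes was not computed for this wider window, so these counts have no reference. With the annotated start, chosen after seeing the data, 1 gene was marked in HSC (Nr4a1). The overlap rules of 50% of the shorter peak or a gap of up to 1 kb left every overlap count within 1.5 times. No paired analysis was possible with 1 HSC library against 2 MPP libraries, and the labels give the HSC library no replicate number. The number of fragments behind an HSC peak, 6 to 14 here, limits every statement on a missing HSC peak.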

Other observations

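From the gene lists, 3 genes with an HSC peak at a start or gene end (Klf9, Slc16a10 and Esrra) were singled out after their values were seen. Nr1h2, Acadm and Ucp2 also had a gene-end peak in HSC, as did 8.21% of all protein-coding genes. Klf9, a transcription factor gene induced by thyroid hormone and by glucocorticoids, had 4 HSC peaks in the gene or within 50 kb, against 2 in MPP1 and 4 in MPP2. Its start on chromosome 19 had 5.36-fold enrichment and 11 summit fragments (5.49 to 19.7) in HSC, against 4.68-fold enrichment and 15 summit fragments (8.40 to 24.7) in MPP2, and MPP1 had no peak there. Slc16a10 had a gene-end peak from 40142177 to 40142448 on chromosome 10 in HSC, with 5.33-fold enrichment and 8 summit fragments (3.45 to 15.8). The same end had folds of 9.84 and 10.4 and pileups of 40 (28.6 to 54.5) and 27 (17.8 to 39.3) in MPP1 and MPP2. Esrra, an orphan receptor gene of mitochondrial metabolism, had 5.44-fold enrichment in HSC from 11 summit fragments (5.49 to 19.7), against 3.09-fold from 14 (7.65 to 23.5) in MPP1 and 7.50-fold from 22 (13.8 to 33.3) in MPP2 at the same end. None of these differences between libraries has a replicate check in HSC.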
